A study of Homo sapiens with 6 samples.

Results

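The mitochondrial genome of human cells carries genes for 13 mRNAs and 22 tRNAs beside its rRNAs. These 35 transcripts were analysed in the castration-resistant (CRPC) prostate cancer cell line C4-2, to ask how they changed upon treatment with androgen. The members were the gene symbols that start with MT-, without the rRNAs MT-RNR1 and MT-RNR2, and they made up 35 of the 55765 gene symbols in the count tables. After genes with low counts had been removed, 16835 genes were tested, among them all 13 mRNAs but only 6 of the 22 tRNAs. The mRNAs and the tRNAs are therefore described apart.

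All libraries were made from total RNA of C4-2 cells kept in DMEM with serum. In the 3 control libraries the cells had received the solvent DMSO for 72 h, and in the other 3 the synthetic androgen R1881 (methyltrienolone) at 1 nM for 72 h, a supraphysiological androgen level (SAL). C4-2 is a single cell line, so that the values hold for that line. The prostate markers KLK3, FOLH1, HOXB13, KRT8 and KRT18 had at least 143 counts in every library. Of 10 markers of basal, immune, endothelial and stromal cells, KRT5, PTPRC, CD3E and COL1A2 had 0 counts in every library and 4 others had 0 to 4 counts per library. The stromal marker COL1A1 ranged from 14 to 75 counts among the DMSO libraries and from 17 to 88 among the SAL libraries, and the endothelial marker VWF from 4 to 27 and from 5 to 35. Their part in the results was not tested. KLK3, the gene of the prostate-specific antigen and known to respond to androgen, rose by 1.21 ± 0.10 (SE) on the log2 scale with an adjusted p of 3.33e-07 (edgeR).

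The libraries held 6931042 to 9776990 gene counts without rRNA genes. They differed more by replicate number than by treatment: of the total variation (sum of squares) in the log2 levels of the 13 mRNAs, 79.2% lay between replicate numbers and 13.6% between treatments, compared with 77.1% and 16.8% over all genes tested. Libraries of the same number were therefore compared as pairs. The level of a transcript is given in CPM (counts scaled to the TMM-corrected library size, without rRNA genes), and a change is SAL against DMSO on the log2 scale with its standard error (SE). A gene was called when its adjusted p in the paired edgeR test over all 16835 genes was below 0.05. CPM is a relative unit, so that more mitochondrial RNA per cell and less of the other RNA cannot be told apart.

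The mitochondrial genome is a small circle that the organelle transcribes on both strands into long precursors. The heavy-strand transcript carries the rRNAs, 12 of the mRNAs and 14 tRNAs, and the light-strand transcript carries MT-ND6 and 8 tRNAs. The tRNAs lie between most of the mRNAs and rRNAs, and their excision by RNase P and ELAC2 releases the mature mRNAs. The 13 proteins are core subunits of the respiratory chain and of ATP synthase, and all other subunits are encoded in the nucleus and imported.

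The genes leave almost no base between them, which sets what a read count can show. A pair of transcripts each carries 2 reading frames. MT-ATP8 (chrM:8366-8572) and MT-ATP6 (chrM:8527-9207) share 46 bases, and MT-ND4L (chrM:10470-10766) and MT-ND4 (chrM:10760-12137) share 7 bases, all on the plus strand of GRCh37. The stretches around these overlaps, chrM:8507-8592 and chrM:10740-10786, are shown because some reads there were given to neither gene by the counting. These were reads that ran across the shared bases into the own bases of both genes. Reads wholly within the 46 bases were lost too, while 7 bases are too few to hold a read. Capitals mark the bases that belong to both genes.
MT-ATP8 and MT-ATP6: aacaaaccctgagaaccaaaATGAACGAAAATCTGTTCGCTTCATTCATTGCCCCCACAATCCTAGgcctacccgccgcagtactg
MT-ND4L and MT-ND4: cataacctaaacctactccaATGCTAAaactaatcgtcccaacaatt

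Copies of mitochondrial DNA in the nuclear genome set another limit, since a read that maps equally well to a copy was not counted. Of all stretches of 50 bases in the 16569 bp of the mitochondrial reference, 23.9% had an identical copy in the nuclear chromosomes of GRCh37. The length of the trimmed reads is not given in the sources used here. With stretches of 30 bases the share was 38.8%, and with 70 bases it was 16.0%.

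The tRNAs differ in how much of their sequence such copies cover. Of the following, MT-TP (chrM:15956-16023, minus strand), MT-TT (chrM:15888-15953, plus strand), MT-TV (chrM:1602-1670, plus strand) and MT-TF (chrM:577-647, plus strand) gave counts. MT-TW (chrM:5512-5579, plus strand), MT-TK (chrM:8295-8364, plus strand) and MT-TA (chrM:5587-5655, minus strand) gave none. MT-TE (chrM:14674-14742, minus strand) gave 0 to 4 per library. MT-TL2, which is not shown, gave 0 to 2 per library although no stretch of 50 bases in it had a copy. Each tRNA shown is written on its own strand, and capitals mark the bases that lie in no exact nuclear copy of at least 30 bases within the gene.
MT-TP: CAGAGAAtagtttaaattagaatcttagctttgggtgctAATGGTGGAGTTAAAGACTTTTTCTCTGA
MT-TT: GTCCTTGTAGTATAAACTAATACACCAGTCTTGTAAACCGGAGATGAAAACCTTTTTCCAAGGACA
MT-TV: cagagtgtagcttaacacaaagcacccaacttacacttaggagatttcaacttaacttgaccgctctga
MT-TF: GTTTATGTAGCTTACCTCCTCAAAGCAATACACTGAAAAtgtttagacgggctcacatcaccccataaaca
MT-TW: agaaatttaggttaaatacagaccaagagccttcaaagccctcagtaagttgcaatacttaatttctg
MT-TK: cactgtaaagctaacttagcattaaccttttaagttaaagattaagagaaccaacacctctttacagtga
MT-TA: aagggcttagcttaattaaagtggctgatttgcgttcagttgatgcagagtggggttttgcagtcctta
MT-TE: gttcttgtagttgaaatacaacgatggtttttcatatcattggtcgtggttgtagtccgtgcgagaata

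To see how the 13 mRNAs changed upon SAL treatment, they were tested gene by gene in the paired fit. MT-ND2, MT-ND4, MT-ND4L, MT-CYB, MT-ATP6 and MT-ATP8 were up-regulated, by 37.2% to 57.5%, and no mitochondrial mRNA was down-regulated. The 6 up-regulated mRNAs were 46.2% of the 13, and over all genes tested 11.5% were called up and 9.37% called down. The mRNAs are not independent observations, since 12 of the 13 belong to the heavy-strand transcript, the 6 up-regulated ones among them. The median log2 change of the 13 mRNAs was 0.46, while that of all genes tested was -0.0011. At an unadjusted p below 0.05 there were 9 mRNAs, all higher in SAL, and DESeq2 called 7 up and 0 down.

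The change was not alike in the pairs. In the pair of replicate 1, 9 of the 13 mRNAs were higher in SAL with a median change of 0.04, in pair 2 there were 12 with a median of 0.45, and in pair 3 all 13 with a median of 0.75. As many as 9 mRNAs were higher in all 3 pairs, which held for 25.9% of all genes tested. The highest level lay in a library of replicate 1 for 12 of the 13 mRNAs, beside 6215 of all 16835 genes tested. The DMSO and SAL groups overlapped for each of the 13 mRNAs. Over all genes tested, every SAL library lay above every DMSO library for 3.78% and below for 3.73%. The count of calls rested on the pairs: without replicate 1 there were 11 up-regulated mRNAs, without replicate 2 there were 2, and without replicate 3 there were 0, with 2 at an unadjusted p below 0.05. In the same fits 2443, 1572 and 750 of all genes tested were up-regulated. In the fit without the replicate block no mRNA was called and none had an unadjusted p below 0.05.

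**Figure D1:**
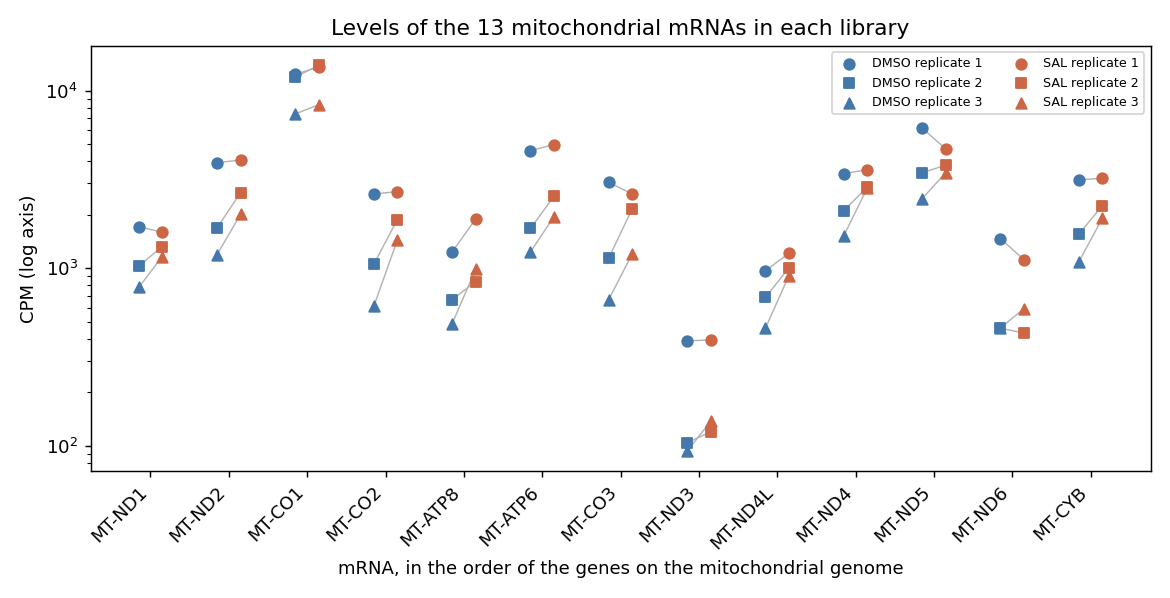
CPM of the 13 mitochondrial mRNAs on a log axis, in the order of their genes, for the 3 DMSO libraries (blue) and the 3 SAL libraries (red), with lines that join libraries of the same replicate number (circle 1, square 2, triangle 3). MT-CO1 stands highest with 7389.5 to 13879.5 CPM and MT-ND3 lowest with 93.1 to 394 CPM, and the lines of replicates 2 and 3 climb more steeply than those of replicate 1 for most mRNAs.

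Complex I (NADH dehydrogenase) takes electrons from NADH and pumps protons, and 7 of its subunits are encoded in the mitochondrion, all in the membrane arm. Of these, 3 were up-regulated and 4 were not called. MT-ND4L, a small membrane subunit, stood at 967, 684 and 459.9 CPM in DMSO replicates 1 to 3 and at 1214, 1006 and 908 CPM in SAL replicates 1 to 3. It was higher in SAL in every pair, by 0.33, 0.56 and 0.98, and the lowest SAL library lay above the DMSO libraries 2 and 3. The fitted change of MT-ND4L was 0.62 ± 0.12 (SE), with an adjusted p of 0.00159 (edgeR).

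MT-ND4, a proton-pumping subunit that shares a transcript with MT-ND4L, had 3405, 2102 and 1521 CPM in DMSO and 3584, 2867 and 2830.1 CPM in SAL. Its pair changes of 0.07, 0.45 and 0.90 came from replicates 2 and 3 for the most part. The fitted change of MT-ND4 was 0.47 ± 0.14 (SE, adjusted p = 0.0274, edgeR). MT-ND2, another proton-pumping subunit, had 3929, 1685 and 1193 CPM in DMSO and 4059.8, 2660.2 and 2008 CPM in SAL. It was nearly level in pair 1, with 0.05, and higher by 0.66 and 0.75 in pairs 2 and 3, which gave 0.49 ± 0.13 (SE, adjusted p = 0.0167, edgeR).

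The other complex I mRNAs did not pass the test. MT-ND1, which forms part of the quinone site, had 1712, 1026 and 779 CPM in DMSO and 1594, 1324 and 1162 CPM in SAL, a change of 0.28 ± 0.12 (SE, adjusted p = 0.121, edgeR). MT-ND3, with the lowest level of all 13, had 389.6, 104 and 93.1 CPM in DMSO and 394, 119.9 and 137 CPM in SAL, a change of 0.25 ± 0.11 (SE, adjusted p = 0.116, edgeR). Both were thus highest in the replicate 1 libraries of both groups, and for MT-ND3 no other library came near them. MT-ND5, the largest of the subunits, had 6144, 3453 and 2461 CPM in DMSO and 4695, 3792 and 3443 CPM in SAL. It was lower in SAL by 0.39 in pair 1 and higher by 0.14 and 0.48 in the other pairs, and its fitted change of 0.08 had a 95% interval from -0.20 to 0.36 (adjusted p = 0.763, edgeR).

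MT-ND6 is the only mRNA of the light-strand transcript. Its level was 1464, 459 and 461 CPM in DMSO and 1117, 432 and 592 CPM in SAL, lower in SAL in pairs 1 and 2 and higher in pair 3. The fitted change of MT-ND6 was -0.04, with a 95% interval from -0.29 to 0.21 (adjusted p = 0.863, edgeR), and it was the only mRNA with a value below 0. Relative to the 12 heavy-strand mRNAs together, MT-ND6 had 3.36, 1.69 and 2.56 counts per 100 in DMSO and 2.51, 1.22 and 2.25 per 100 in SAL. This ratio was lower in SAL in all 3 pairs, by 0.85, 0.47 and 0.31 per 100, while the groups overlapped. The share of MT-ND5, a heavy-strand mRNA, in the mitochondrial mRNA counts was lower in all 3 pairs too. The reads were counted without strand, so that counts on MT-ND6 hold any reads of heavy-strand precursors across the same bases.

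Complex III passes electrons from ubiquinol to cytochrome c, and MT-CYB, cytochrome b, is its only subunit encoded in the mitochondrion. MT-CYB had 3148, 1554 and 1085 CPM in DMSO and 3204, 2245 and 1906 CPM in SAL. The pair changes were 0.03, 0.53 and 0.81, again smallest in replicate 1. With 0.46 ± 0.13 (SE) and an adjusted p of 0.0278 (edgeR), MT-CYB was up-regulated.

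Complex IV (cytochrome c oxidase) reduces oxygen to water, and MT-CO1, MT-CO2 and MT-CO3 form its core. None of these was called, although MT-CO2 had an unadjusted p of 0.0380 (edgeR) and DESeq2 called MT-CO3 up. MT-CO1, the subunit with the oxygen-binding haem, had 12353, 11922 and 7389.5 CPM in DMSO and 13570.0, 13879.5 and 8325 CPM in SAL. Its pair changes ranged least among the 13, with 0.14, 0.22 and 0.17, and gave 0.18 ± 0.10 (SE, adjusted p = 0.268, edgeR).

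MT-CO2, which takes the electrons from cytochrome c, had 2619, 1052 and 609.6 CPM in DMSO and 2694, 1873 and 1434 CPM in SAL. It had the largest fitted change of the 13, 0.70, but also a wide spread between pairs, from 0.04 to 1.23, and its SE was 0.25 (adjusted p = 0.127, edgeR). MT-CO3 had 3044, 1141 and 666 CPM in DMSO and 2612, 2162 and 1205 CPM in SAL. It was lower in SAL by 0.22 in pair 1 and higher by 0.92 and 0.86 in the others, and its change of 0.52 ± 0.27 (SE) had an adjusted p of 0.291 (edgeR). Without replicate 1, MT-CO2 was higher by 1.03 and MT-CO3 by 0.89, and both were called.

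ATP synthase makes ATP from the proton gradient, and MT-ATP6 and MT-ATP8, which are read from a shared transcript, belong to its membrane part. MT-ATP8 had 1234, 664 and 486 CPM in DMSO and 1888, 839.8 and 983 CPM in SAL. It had the largest difference of the 13 in pair 1, 0.61, beside 0.34 and 1.02 in pairs 2 and 3, and its fitted change was 0.66 ± 0.12 (SE, adjusted p = 0.00118, edgeR). MT-ATP6, which forms the proton channel, had 4588, 1673 and 1234 CPM in DMSO and 4959, 2537 and 1949 CPM in SAL. Its pair changes were 0.11, 0.60 and 0.66, and its fitted change was 0.46 ± 0.12 (SE, adjusted p = 0.0107, edgeR). The 46 shared bases shown above are part of the 207 bases of MT-ATP8. Reads wholly within them were given to neither gene, as were reads that ran across them into the own bases of both genes.

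**Figure D2:**
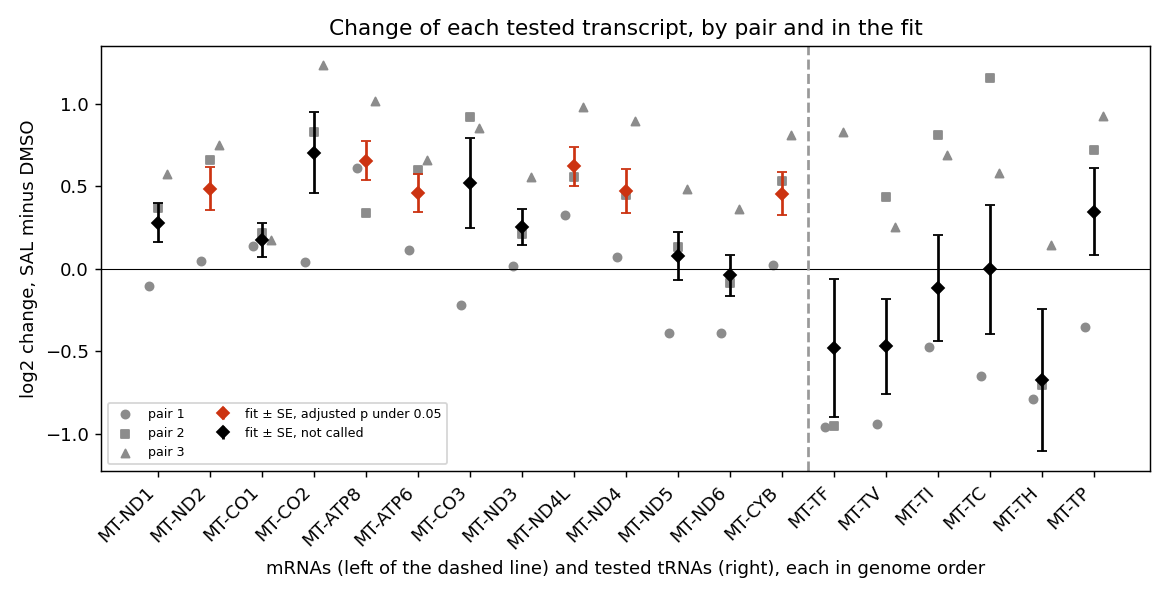
Log2 change, SAL minus DMSO, of the 13 mRNAs (left of the dashed line) and the 6 tested tRNAs (right), with grey symbols for the 3 pairs and diamonds with bars for the fitted change ± SE, red where the adjusted p was below 0.05. In pair 1 (circles) 4 mRNAs lie below 0 and MT-ND4L and MT-ATP8 lie highest, at 0.33 and 0.61, and all 6 tRNAs lie below 0 in pair 1 and above 0 in pair 3.

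Together the 13 mRNAs took 4.44%, 2.82% and 1.99% of the gene counts without rRNA in DMSO replicates 1 to 3 and 4.39%, 3.33% and 2.66% in SAL replicates 1 to 3. The mean was 3.08% ± 1.24 (SD, n = 3) in DMSO and 3.46% ± 0.87 (SD, n = 3) in SAL. SAL was lower by 0.049 percentage points in pair 1 and higher by 0.511 and 0.672 in pairs 2 and 3. The difference between the means was thus smaller than the spread between libraries of a group. It was about as large as the SD of the 3 pair differences, 0.378 percentage points.

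Other parts of the libraries moved with this share. The mitochondrial rRNA MT-RNR2, which was removed before the fit, took 27.7%, 18.6% and 11.9% of all gene counts in DMSO and 27.8%, 21.98% and 17.4% in SAL, nearly level in pair 1 and higher in SAL in pairs 2 and 3. MT-RNR1 had only 102 to 415 counts per library, beside 933113 to 3130214 for MT-RNR2. How far the library preparation set the counts of both rRNAs was not tested, so that these counts do not give rRNA levels in the cells. The nuclear noncoding RNAs RN7SK, RPPH1, RMRP, RN7SL1 and RN7SL2, which are short and were chosen after their values were seen, together took 11.6%, 2.40% and 1.05% of the gene counts without rRNA in DMSO and 9.77%, 5.33% and 1.75% in SAL. Their share was lower in SAL in pair 1 and higher in pairs 2 and 3, with the same signs as the share of the mitochondrial mRNAs. Reads outside genes were 37.3%, 30.1% and 48.3% of the tallied reads in DMSO and 38.6%, 23.96% and 43.3% in SAL, higher in pair 1 and lower in the other pairs. The part of these quantities in the change of the mitochondrial mRNAs was not tested. With the 5 short RNAs left out of the total, the mRNA share in SAL was lower by 0.156 percentage points in pair 1 and higher by 0.630 and 0.698 in pairs 2 and 3, and the means differed by 0.391.

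**Figure D3:**
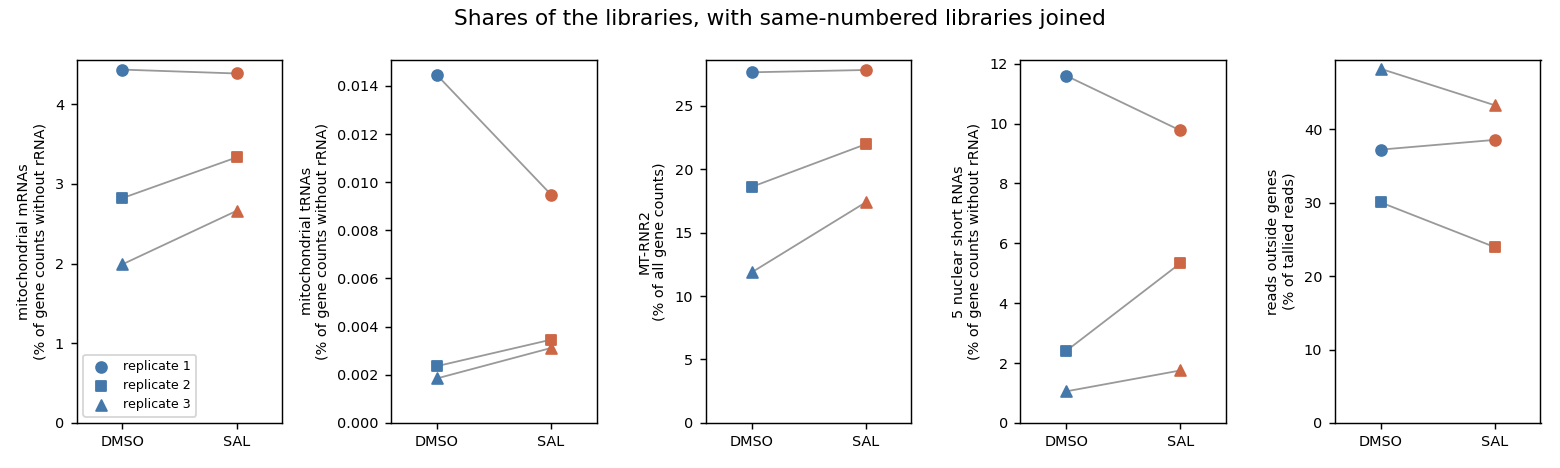
Shares of the libraries taken by the mitochondrial mRNAs, the mitochondrial tRNAs, MT-RNR2, the 5 short nuclear RNAs and reads outside genes, in percent of the total named on each axis, for DMSO (blue) and SAL (red), with lines that join libraries of the same replicate number. The mitochondrial mRNA and tRNA shares and the short RNAs are lower in SAL for replicate 1 and higher for replicates 2 and 3, and the mRNAs span 1.99% to 4.44%.

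To compare the mRNAs with each other, levels were divided by gene length in kilobases. MT-CO1 had the highest median over the 6 libraries, 7871 CPM per kb, and MT-ND3 the lowest, 372 CPM per kb. By the mean log2 level the order was MT-CO1, MT-ATP8, MT-ATP6, MT-ND4L, MT-ND2, MT-CO2, MT-ND5, MT-CO3, MT-ND4, MT-CYB, MT-ND1, MT-ND6 and MT-ND3. Among neighbours in this order, MT-CYB lay above MT-ND1 and MT-ND6 above MT-ND3 in all 6 libraries and by more than the spread of the difference, and no other pair of neighbours differed in that way. MT-ND4L and MT-ND4, which share a transcript, had medians of 3157 and 2067 CPM per kb, and MT-ATP8 and MT-ATP6 had 4404 and 3294 CPM per kb.

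Nuclear copies were spread unequally over these genes. Identical copies existed for 50.6% of the 50-base stretches of MT-CO1, 48.3% of MT-ATP6, 43.6% of MT-ND2, 30.9% of MT-CO3, 29% of MT-CO2, 25.6% of MT-ND1 and 20% of MT-ND6. For MT-ATP8, MT-ND5, MT-ND4 and MT-CYB the share was 8.2%, 4.8%, 3.5% and 1.6%, and MT-ND3 and MT-ND4L had none. MT-CO1 was the highest although about as many of its stretches had a copy as had none, and MT-ND3 was the lowest without any. How far copies lowered each level was not tested.

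The makeup of the 13 mRNAs also differed by replicate number. MT-CO1 took 27.5%, 43.3% and 40.1% of their counts in DMSO and 29.8%, 38.8% and 31.0% in SAL, lowest in the replicate 1 library of each group. MT-ND5 took 13.7%, 12.5% and 13.3% in DMSO and 10.3%, 10.6% and 12.8% in SAL and was lower in SAL in all 3 pairs. The share of MT-ND6 was lower in all 3 pairs as well. MT-ND4L took 2.15%, 2.49% and 2.49% in DMSO and 2.66%, 2.82% and 3.38% in SAL and was higher in all 3 pairs. The same held for MT-ND2, MT-ND4, MT-CYB, MT-CO2 and MT-ATP6. No test was made of these shares.

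Counts on the tRNAs, which carry amino acids to the mitochondrial ribosome, were few in these libraries. Whether these reads came from mature tRNAs or from precursors was not tested, so that the counts do not give the levels of mature tRNAs. All 22 together had 1183, 168 and 128 counts in DMSO and 769, 338 and 255 counts in SAL, which is 3.26, 0.835 and 0.928 per 1000 mRNA counts in DMSO and 2.16, 1.04 and 1.17 in SAL. The replicate 1 libraries thus held the most tRNA counts of both groups. Of the variation in the 6 tested tRNAs, 92.4% lay between replicate numbers and 1.82% between treatments.

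No tRNA was called in either direction (edgeR), beside 20.8% of all genes tested. None of the 6 tested tRNAs had an unadjusted p below 0.05, and DESeq2 called 0. Only MT-TP had at least 10 counts in every library, so that the lack of a call does not show a lack of change. MT-TP, which carries proline and is the first gene of the light-strand transcript, had the most counts, with 474, 109 and 89 in DMSO and 358, 225 and 185 in SAL. MT-TP made up 40.1% to 72.5% of the tRNA counts of a library. A read that ran from a tRNA into an abutting gene was given to neither, whereas a read that ran from a tRNA into bases without an annotated gene was counted on it. On the map 546 such bases follow MT-TP and 576 precede MT-TF, and the totals over the 6 libraries were 1440 counts for MT-TP and 104 for MT-TF. The pair changes of MT-TP were -0.36, 0.72 and 0.92, and the fitted change of 0.35 had a 95% interval from -0.17 to 0.86 (adjusted p = 0.435, edgeR). Without replicate 1, MT-TP was up-regulated by 0.83 (adjusted p = 4.07e-05, edgeR), the only call of a tRNA in any setting.

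MT-TV and MT-TF lie beside the rRNA genes and are cut out with them. MT-TV had 196, 12 and 9 counts in DMSO and 98, 21 and 12 in SAL, and MT-TF had 42, 11 and 8 in DMSO and 20, 6 and 17 in SAL. The fitted changes were -0.47 ± 0.29 (SE, adjusted p = 0.291, edgeR) for MT-TV and -0.48 ± 0.42 (SE, adjusted p = 0.473, edgeR) for MT-TF. MT-TL1, on the other side of MT-RNR2, had 16, 0 and 0 counts in DMSO and 10, 4 and 2 in SAL and was not tested.

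The other tested tRNAs were MT-TI, MT-TC and MT-TH. MT-TI had 136, 7 and 1 counts in DMSO and 94, 17 and 3 in SAL, and MT-TC had 118, 8 and 8 in DMSO and 72, 25 and 14 in SAL. Their fitted changes were -0.12 ± 0.32 (SE, adjusted p = 0.845, edgeR) and -0.0036 ± 0.39 (SE, adjusted p = 0.997, edgeR). MT-TH had 30, 9 and 4 counts in DMSO and 16, 6 and 5 in SAL, with a change of -0.67 ± 0.43 (SE, adjusted p = 0.312, edgeR). All 6 tested tRNAs were lower in SAL in pair 1, 4 were higher in pair 2 and all 6 were higher in pair 3. The sums of the tRNAs moved in the same way as the share of the mRNAs and of the short nuclear RNAs, and their relation was not tested.

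Counts of the tRNAs can be set beside their nuclear copies. In 7 tRNAs every stretch of 50 bases had an identical nuclear copy: MT-TA, MT-TE, MT-TK, MT-TN, MT-TQ, MT-TS1 and MT-TW. Of these, 6 had 0 counts in all 6 libraries, and MT-TE had 0 to 4 counts per library. For reads that could be counted, a count of 0 allows up to 3 counts, which is 0.329 to 0.410 CPM by library. For a tRNA whose reads map equally well to a copy, it sets no upper limit on the level. Those printed above have no capital letter, and MT-TV has none at 30 bases either, although only 5 of its 20 stretches of 50 bases had a copy.

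The other 15 tRNAs all had counts, from 4 to 1440 in total over the 6 libraries. MT-TM and MT-TR had the lowest totals, 4 each, and 26.3% and 18.8% of their stretches had a copy. Among the 8 tRNAs with no copied stretch of 50 bases, the totals went from 5 for MT-TL2 to 1440 for MT-TP. How far copies lowered the counts of the tRNAs was not tested. MT-TT, which has no copy of 30 bases either, had 16, 1 and 2 counts in DMSO and 8, 6 and 1 in SAL.

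By strand, 4 of the 8 light-strand tRNAs and 2 of the 14 heavy-strand tRNAs had 0 counts. All 6 were among the 7 tRNAs in which every stretch of 50 bases had a copy, and a difference by strand was not tested. The light-strand tRNAs without counts were MT-TQ, MT-TA, MT-TN and MT-TS1, and those with counts were MT-TC, MT-TY, MT-TE and MT-TP. Of the 16 tRNAs with counts, 13 had their highest CPM in the library of DMSO replicate 1. Since counting ignored strand, reads of a long precursor across a tRNA of the opposite strand are part of these counts.

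**Figure D4:**
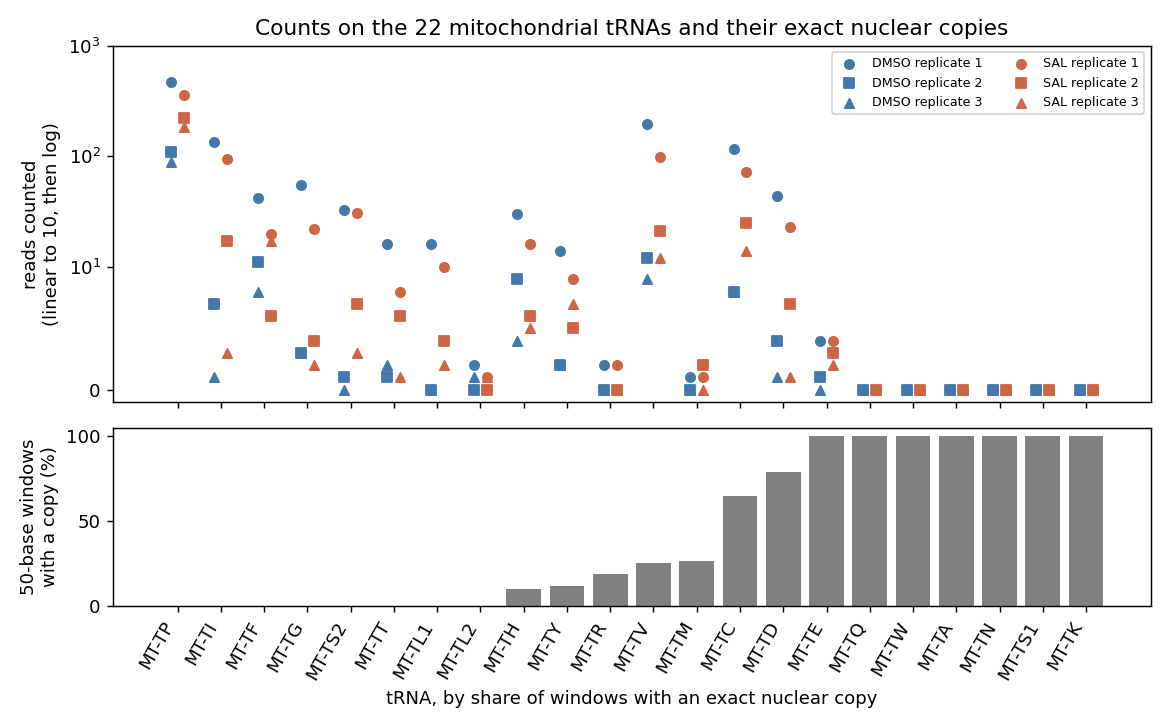
Upper panel, counts of each of the 22 tRNAs in the 6 libraries (DMSO blue, SAL red, symbols by replicate number, equal values drawn over each other), on an axis that is linear to 10 and logarithmic above. Lower panel, percent of the 50-base stretches of each tRNA with an identical copy in the nuclear genome, by which the tRNAs are ordered. The 7 tRNAs at 100% show 0 to 4 counts, and those without a copy range from 0 to 2 for MT-TL2 to 89 to 474 for MT-TP.

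Reads can also be given to the nuclear copies. By the form of their names, 175 gene symbols in the table were nuclear pseudogenes of mitochondrial genes, and 71 of these had a count. They held 709 to 3514 counts per library, or 0.325% to 0.968% of the counts on the mitochondrial mRNAs. Copies under other names are not included. Most of these counts fell on MTND6P4, a copy of MT-ND6 on chromosome 5 (GRCh37 chr5:134259813-134260334, plus strand), with 3003, 521 and 650 counts in DMSO and 2095, 782 and 779 in SAL. This was 15.5 to 25.4 counts per 100 counts of MT-ND6, and it was highest in the replicate 1 libraries as MT-ND6 itself was. Its fitted change was -0.04 ± 0.13 (SE, adjusted p = 0.886, edgeR). MTND4P12 and MTND5P11, beside it on chromosome 5, had 409 and 196 counts over all libraries.

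To set the mitochondrial mRNAs beside the nuclear genes that make and use them, 3 lists were compared. The machinery of mitochondrial RNA held 44 genes for transcription, genome replication, processing, RNA stability and their nuclear regulators, and 43 were tested. Of these, 1 was up-regulated, 6 were down-regulated and 36 were not called, beside 20.8% of all genes called, and the median change was -0.12. MTERFD2 (MTERF4), which acts in the maturation of the mitochondrial ribosome, rose from 41.1 ± 9.69 to 57.5 ± 8.72 CPM (SD, n = 3), by 0.50 ± 0.11 (SE, adjusted p = 0.00333, edgeR).

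TFAM, which packs mitochondrial DNA and starts its transcription, had 129, 57.8 and 104 CPM in DMSO and 93.4, 40.7 and 74.5 CPM in SAL. It fell by 0.48 on the log2 scale with an SE of 0.09 (adjusted p = 0.00164, edgeR), and by nearly the same amount in each pair. LRPPRC, which binds and stabilises mitochondrial mRNAs, had 432, 336 and 419.7 CPM in DMSO and 349, 217 and 323 CPM in SAL, a change of -0.44 ± 0.10 (SE, adjusted p = 0.00377, edgeR). MGME1, a nuclease of mitochondrial DNA, went from 36.8 ± 13.97 to 23.7 ± 6.92 CPM (SD, n = 3), a change of -0.61 ± 0.13 (SE, adjusted p = 0.00373, edgeR). TFAM and LRPPRC were thus lower in SAL in all 3 pairs, the replicate 1 pair included.

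Other core genes of this list did not pass the test. POLRMT, the mitochondrial RNA polymerase, changed by -0.07 ± 0.14 (SE, adjusted p = 0.791, edgeR), SLIRP, the partner of LRPPRC, by 0.13 ± 0.11 (SE, adjusted p = 0.451, edgeR), and ELAC2, which cuts the tRNA 3′ ends, by 0.02 ± 0.09 (SE, adjusted p = 0.907, edgeR). PPARGC1A, a coactivator of mitochondrial biogenesis, had 4 to 15 counts per library and was not tested. By pair, the median change of the 43 genes was -0.16, -0.14 and -0.12, nearly alike, whereas that of the mitochondrial mRNAs went from 0.04 to 0.75. DESeq2 called 1 gene of the list up and 3 down, and without replicate 3 there was no call, with 1 gene up and 4 down at an unadjusted p below 0.05.

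The list of mitochondrial tRNA enzymes held 32 genes, 19 aminoacyl-tRNA synthetases and 13 maturation enzymes, all tested. Of these, 1 was up-regulated and 4 were down-regulated, a smaller share than the 20.8% of all genes called, with a median change of -0.09. RARS2, the arginyl-tRNA synthetase, changed by 0.48 ± 0.16 (SE, adjusted p = 0.0401, edgeR). GARS, the glycyl-tRNA synthetase of cytosol and mitochondria, went from 467 ± 53.6 to 336 ± 81.7 CPM (SD, n = 3), a change of -0.49 ± 0.10 (SE, adjusted p = 0.00196, edgeR). AARS2, the mitochondrial alanyl-tRNA synthetase, changed by -0.43 ± 0.14 (SE, adjusted p = 0.0370, edgeR). With DESeq2 1 gene of this list was down and 0 were up, with 1 up at an unadjusted p below 0.05, and without replicate 3 there was no call, with 1 gene up and 2 down at an unadjusted p below 0.05.

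The nuclear subunits of the respiratory chain and ATP synthase held 78 genes, all tested. Of these, 8 were up-regulated, 2 were down-regulated and 68 were not called, with a median change of 0.07. The share called was smaller than the 20.8% of all genes called in either direction, and the share up was close to the 11.5% of all genes. UQCRB and UQCRQ of complex III rose by 0.56 ± 0.12 and 0.33 ± 0.10 (SE, adjusted p = 0.00399 and 0.0251, edgeR), and ATP5E, the epsilon subunit of ATP synthase, by 0.51 ± 0.11 (SE, adjusted p = 0.00494, edgeR). CYC1, the cytochrome c1 of complex III, changed by -0.45 ± 0.12 and COX5B of complex IV by -0.36 ± 0.10 (SE, adjusted p = 0.0175 and 0.0223, edgeR). The up-regulated members were thus 1 of 37 in complex I, 3 of 9 in complex III, 2 of 11 in complex IV and 2 of 17 in ATP synthase, and the other 4 genes belong to complex II, whose subunits are all nuclear.

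The changes of the nuclear subunits also differed between the pairs. Their median change was -0.12 in pair 1, 0.34 in pair 2 and 0.14 in pair 3. The highest level lay in a library of replicate 1 for 67 of the 78, beside 6215 of all 16835 genes tested. Without replicate 1, 29 of the 78 were up-regulated, and without replicates 2 and 3 there were 2 and 1. In these fits 2443, 1572 and 750 of all genes tested were up-regulated. DESeq2 called 3 up. The part of the replicate number and of the short nuclear RNAs in these changes was not tested.

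**Figure D5:**
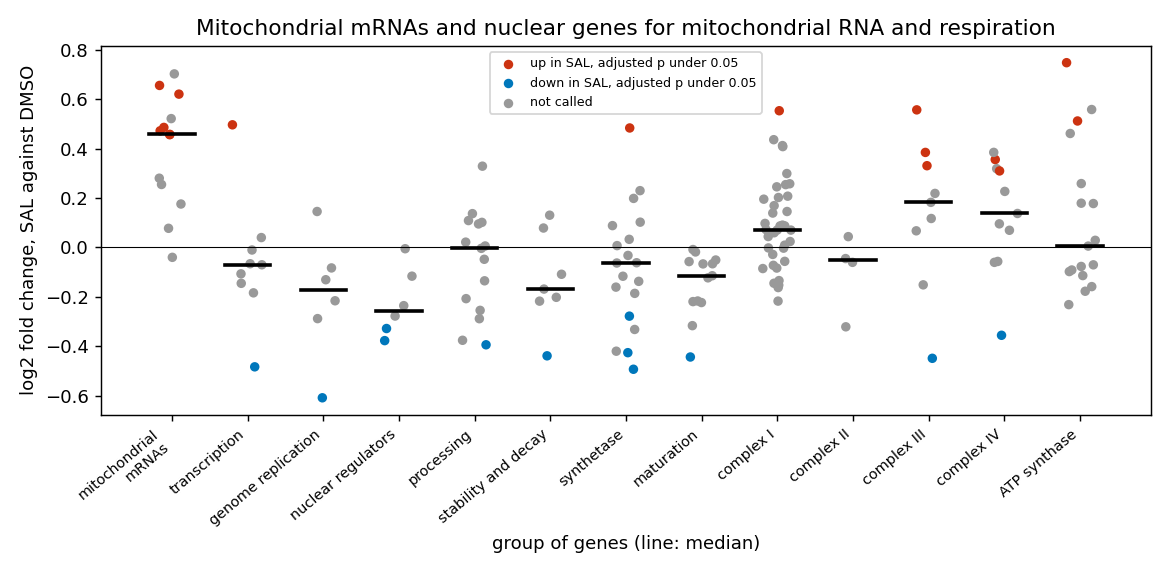
Fitted log2 change, SAL against DMSO, of the 13 mitochondrial mRNAs and of the tested nuclear genes by subgroup (RNA machinery from transcription to stability and decay, tRNA synthetases and maturation, and the nuclear subunits by complex), with a line at the median of each group and colour for calls at an adjusted p below 0.05. The mitochondrial mRNAs have a median of 0.46, and the medians of all other groups lie between -0.26 and 0.18.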

How the data were processed

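RNA-seq libraries of total RNA were made with a stranded kit, 3 per condition, in rounds that the study calls independent. Whether each came from a separate culture is not given in the sources used here, and p-values measure only the spread between these libraries. The authors cut 4 bases and low-quality ends from the reads, aligned read 1 of each pair to hg19 with TopHat2 2.1.0 (per the labels) and counted it per gene with HTSeq 0.11.2 and GENCODE v19, without strand and in intersection-nonempty mode. The deposited numbers are raw counts, grouped here by the treatment and replicate number in the labels.

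Following the published methods, 523 symbols of rRNA genes were taken out. Low genes were removed with filterByExpr, TMM factors were computed, and edgeR 4.0.16 (R 4.3.3) was fitted to 16835 genes with replicate number and treatment as terms, robust quasi-likelihood tests and Benjamini-Hochberg adjustment. The SE is the absolute log2 change over the square root of F. Pair changes use log2 CPM (prior count 2). The replicate numbers pair the libraries, since the methods name a paired test and same-numbered libraries deviated together from their group means, with correlations of 0.886, 0.856 and 0.739.

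In simulated data of this comparison (16360 genes tested), 47.6% of the genes changed by 0.58 on the log2 scale were called, 78.5% of those changed by 1 and 100% of those changed by 2. Of the calls, 16.7% were unchanged genes, or 5.2% with dispersions from the trend, so that adjusted p-values near 0.05 are less certain than they state. The 6 libraries limit the precision of every test.

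Sequences and positions are from GRCh37 with the lifted GENCODE v44 annotation, which is newer than that of the authors. Nuclear copies are exact matches to its nuclear chromosomes (Python 3.11.15). Which mitochondrial reference the hg19 of the authors held is not given in the sources used here. The members and gene lists were chosen with earlier results of these data known. All 13 mRNAs are named, tRNAs by highest and lowest counts, strand and nearness to the rRNAs (those tested or at 0 were added after their values were seen), and list genes by smallest adjusted p or as core genes, of which some are not reported here. PECAM1 and the LNCaP libraries were not analysed here. Alternatives were DESeq2 1.42.0, its size factors, omission of the block, omission of the low-count filter, a stricter minimum (10 counts in all libraries), retention of rRNA genes, scaling without mitochondrial genes, other totals for shares, and each replicate number left out.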

Additional observations from a re-analysis of the deposited data

How the results depend on the processing

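The up-regulated mitochondrial mRNAs numbered 6 to 8 with DESeq2, its size factors, no filter, at least 10 counts, rRNA kept or scaling without mitochondrial genes, and 0 to 11 when a replicate number was left out, a fit in which edgeR pools the spread over genes. Without the replicate block, the calls of all 3 nuclear lists and of the mRNAs fell to 0 in both directions, with 0 at an unadjusted p below 0.05, and those of all genes to 18 up and 3 down. No tRNA was called with or without the block. With DESeq2 there were 1290 genes up and 950 down in all, 3 machinery genes down, 1 tRNA enzyme gene down and 0 up (1 at an unadjusted p below 0.05), and 3 nuclear respiratory genes up, and with no filter 14 respiratory genes up. When a replicate number was left out, tRNA calls were 0 to 1 up, machinery genes 0 to 2 up and 0 to 7 down, tRNA enzyme genes 0 up and 0 to 7 down, and respiratory genes 1 to 29 up and 0 to 4 down. The cause was not tested.

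Of the member values under alternatives, 149 kept direction and side of the threshold, 16 lost a call, 9 gained a call and 9 changed direction, with no call in the fits that disagreed. These were MT-ND5 without the block (-0.015), MT-TC (0.26) and MT-TI (0.15) with DESeq2 and MT-TC with no filter (0.0013). When a replicate number was left out, MT-ND5 ranged from -0.13 to 0.31, MT-ND6 from -0.24 to 0.14, MT-TF from -1.07 to 0.024, MT-TV from -0.79 to 0.40 and MT-TC from -0.43 to 1.03, with the sign changed without replicate 3 for MT-ND5 and without replicate 1 for the others. The difference in mRNA share, 0.378 percentage points, was 0.231 to 0.591 when a replicate number was left out and 0.235 to 0.391 with other totals, the one without the short RNAs chosen after the data had been seen. The difference in tRNA share, -0.00087 percentage points, was -0.00194 to 0.00118 when a replicate number was left out. Counts below about 10 per library, as on most tRNAs, allow no test of their change.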
